A study of Mus musculus with 9 samples.

Results

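The troponin complex sits on the thin filament of striated muscle and makes contraction depend on calcium. Troponin C (TnC) binds the calcium, troponin I (TnI) holds actin and myosin apart at rest, and troponin T (TnT) ties the complex to tropomyosin. Vertebrates have separate genes for fast skeletal, slow skeletal and cardiac forms. In adult mouse limb muscle the fast forms belong to fast fibres and the slow forms to slow fibres. Slow TnC is also the TnC of the heart.

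The 8 genes described here were the rows of the deposited table named Tnnc1, Tnnc2, Tnni1, Tnni2, Tnni3, Tnnt1, Tnnt2 and Tnnt3, out of 35275 genes. They were chosen by name. The fast forms are Tnnc2, Tnni2 and Tnnt3, the slow forms Tnnc1, Tnni1 and Tnnt1, and the cardiac forms Tnni3 and Tnnt2. Levels are the deposited FPKM values, which are scaled to gene length and to the total of each library. A mean of at least 0.5 FPKM over the 9 libraries was required for a test, and 6 of the 8 troponin genes passed, as did 11337 genes in all. Tnnc2 and Tnni3 did not.

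RNA was sequenced from gastrocnemius, a calf muscle made mostly of fast fibres in mice. Wild type C57BL/6J mice, 8 to 10 weeks old, received an Alzet osmotic pump filled with ammonium acetate (delivered at 2.5 mmol/kg/day, 5 libraries, numbered 4 to 8) or with sterile PBS (4 libraries, numbered 4, 5, 7 and 8), and muscle was taken after 4 weeks. The series examines the response of muscle to excess ammonia, which here came from a pump and not from a failing liver. Whether every library came from its own mouse is not in the labels, so the p-values below cover the variation among these 9 libraries, which may be technical.

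The reads recovered from the FPKM values amounted to 31293852 ± 5570241 in ammonium acetate libraries (SD, n = 5) and 33664748 ± 6668617 in PBS libraries (SD, n = 4). Skeletal muscle markers (Acta1, Ckm, Myh4, Mylpf and Ttn) summed to 44888 to 67629 FPKM in ammonium acetate libraries and 43505 to 54567 FPKM in PBS libraries. The heart markers Myh6, Myl7 and Nppa together stayed at 0.0513 to 0.393 FPKM in ammonium acetate libraries and at 0.177 to 0.580 FPKM in PBS libraries. Ammonium acetate libraries 6 and 8 stood apart by gene length. The slope of a library's log2 deviation from the mean of all libraries on log2 gene length was -0.17 and -0.16 there, against -0.01 to 0.09 in the other 3 ammonium acetate libraries and 0.01 to 0.12 in the PBS libraries. Short genes were thus relatively high in those 2 libraries, and the troponin genes past the filter, other than Tnni1 and Tnnt2, are 721 to 1079 bases long in the deposited table.

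The fast TnT and TnI genes stood far above the slow and cardiac troponin genes in every library. Fast TnC, Tnnc2, is taken up separately below. Per length, Tnnt3 averaged 19514 ± 2483 FPKM in ammonium acetate muscle and 16358 ± 940 FPKM in PBS muscle (SD, n = 5 and 4), which placed it at rank 3 and rank 5 of all genes. Tnni2 averaged 12153 ± 2891 FPKM in ammonium acetate muscle and 9461 ± 924 FPKM in PBS muscle, at rank 7 and rank 8. The slow genes lay far lower, with Tnnt1 at 184 ± 75.3 FPKM in ammonium acetate muscle and 189 ± 86.1 in PBS muscle and Tnnc1 at 164 ± 72.9 in ammonium acetate muscle and 153 ± 70.2 in PBS muscle. Slow TnI was lower again, with Tnni1 at 51.0 ± 24.2 FPKM in ammonium acetate muscle and 44.5 ± 17.8 in PBS muscle. Tnnt2 was near the filter. All 8 genes together took 3.24% ± 0.517 of the reads in ammonium acetate libraries and 2.65% ± 0.170 in PBS libraries, with Tnnc2 entered at its few listed reads. Ammonium acetate libraries 6 and 8 held 3.78% and 3.75%. The other ammonium acetate libraries held 2.64% to 3.16%, and the PBS libraries 2.46% to 2.84%. Values of different genes depend on the length each is divided by. With all annotated exon bases in place of the deposited lengths, Tnnc1 stood above Tnnt1 (114 against 88.3 in ammonium acetate muscle and 106 against 91.0 in PBS muscle), so the order of these neighbours is not fixed by the data.

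**Figure D1:**
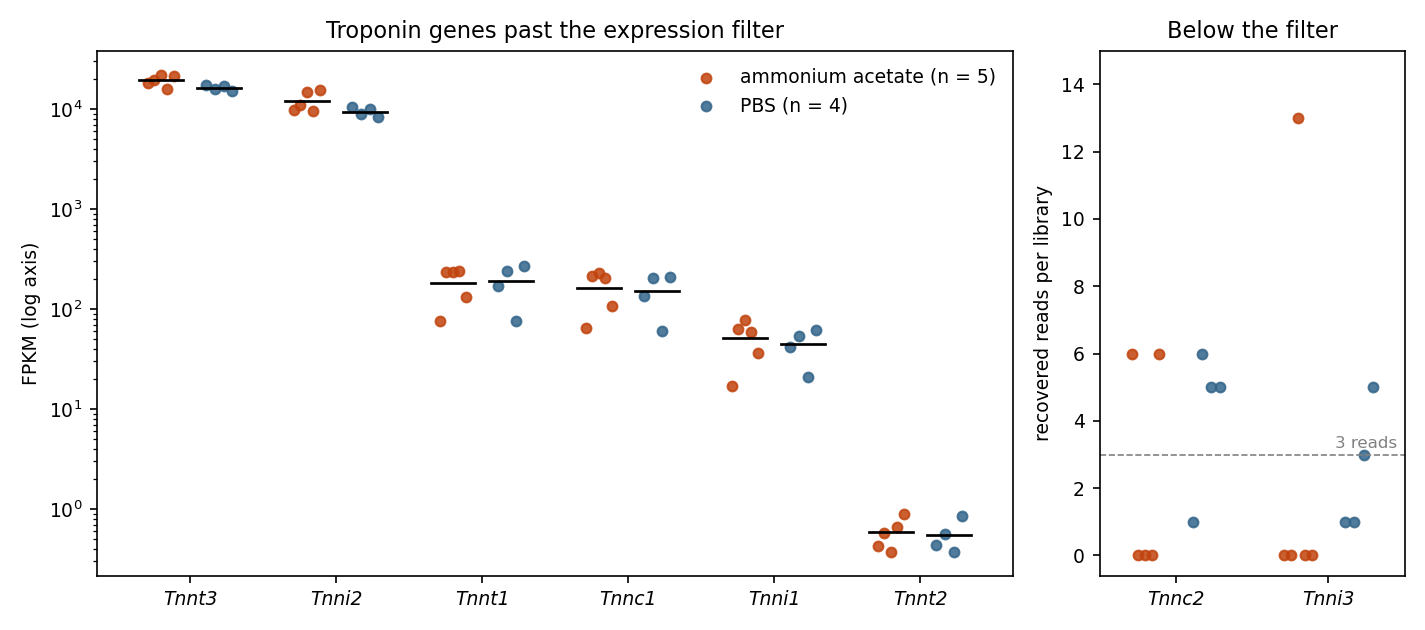
Level of each troponin gene in every library. Left, FPKM on a log axis for the 6 genes past the filter, with ammonium acetate (n = 5) left of PBS (n = 4) and a black line at each mean. Right, recovered reads for the 2 genes below the filter, with a dashed line at 3 reads. Tnnt3 and Tnni2 lie at or above 8408 FPKM in all 9 libraries, and the slow genes spread widely in both groups.

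No troponin gene passed the test between ammonium acetate and PBS muscle. At an adjusted p of 0.05 (limma, Benjamini-Hochberg over 11337 genes) 0 of the 6 tested troponin genes were called, beside 0% of all genes. At an unadjusted p of 0.05, 0 of the 6 were past the threshold, beside 8.57% of all genes. The groups overlapped for all 6, while the groups did not overlap for 2.13% of all genes. Tested on the recovered reads with limma's voom, 0 of all genes were called and 924 had an unadjusted p under 0.05, against 972 in the FPKM test. The smallest adjusted p of any gene by limma on FPKM was 0.527. The intervals of the slow genes were wide, with bounds near 1 log2 unit below and above 0.

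**Figure D2:**
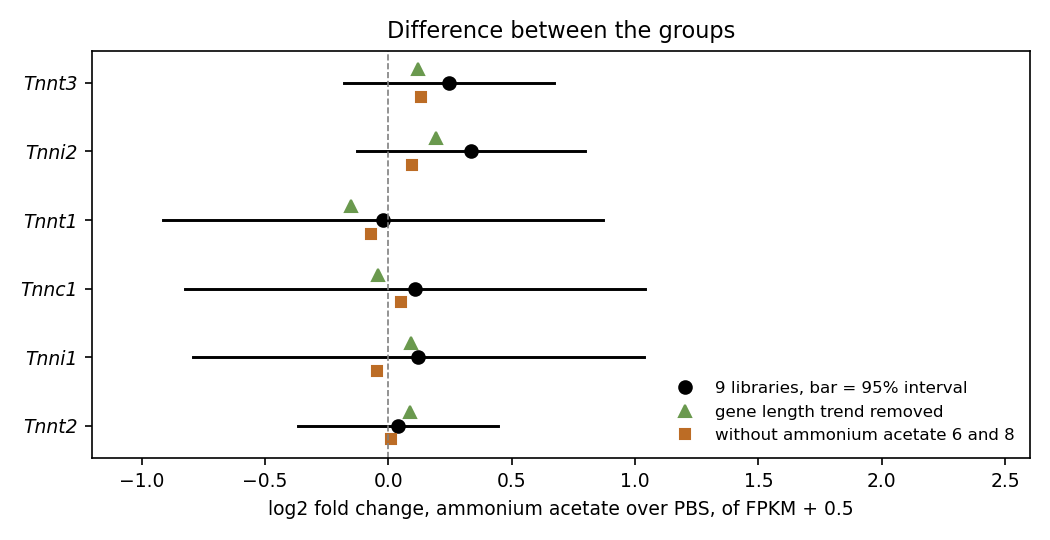
Log2 fold change of FPKM + 0.5, ammonium acetate over PBS, for the 6 tested troponin genes. Black points and bars are the limma estimate over 9 libraries with its 95% interval, triangles the estimate after the gene length trend was removed, and squares the estimate without ammonium acetate libraries 6 and 8. All 6 intervals include 0, and those of the slow genes are the widest.

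Calcium binding is the work of TnC. Slow TnC is Tnnc1 (ENSMUSG00000091898, mm10 chr14:31208312-31211729, plus strand). It stood at 64.9, 214, 228, 205 and 108 FPKM in ammonium acetate libraries 4 to 8. In PBS libraries 4, 5, 7 and 8 it stood at 136, 204, 60.1 and 210 FPKM. Each group held a library near 60 FPKM and several at or above 204, so the groups overlapped over nearly their whole range. The log2 fold change was 0.11 (SE 0.43, 95% interval -0.82 to 1.04), with an adjusted p of 0.916 by limma. Its sign was not stable: it was -0.28 without PBS library 7 and 0.40 without ammonium acetate library 4.

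Fast TnC is Tnnc2 (ENSMUSG00000017300, chr2:164777161-164779967, minus strand), the partner of the abundant fast TnI and TnT. It held 6, 0, 0, 0 and 6 reads in ammonium acetate libraries 4 to 8 and 1, 6, 5 and 5 reads in the PBS libraries, so it was listed at 0 to 0.243 FPKM in ammonium acetate libraries and at 0.0421 to 0.337 FPKM in PBS libraries. A count of 0 allows up to 3 reads, or 0.127 to 0.172 FPKM in the 3 libraries at 0. This interval covers counting error only. In the annotation, Tnnc2 overlaps another gene. Of the 700 bases of the transcript whose length the table uses (GENCODE M21), 592 lie in the last exon of Ube2c, the gene of a ubiquitin-conjugating enzyme, on the opposite strand. Ube2c itself held 5 to 31 reads. Reads that lie wholly within an exon of Tnnc2 in such a stretch cannot be told apart without strand. The sources used here do not give the strand setting.

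Over all protein-coding genes, the share with no read in any library did not follow the extent of such overlap evenly. It was 24.2% of the 17341 genes with no exon base on an exon of an opposite-strand gene, 5.38% of the 4218 genes with up to 50% and 27% of the 122 genes with 50% to 80%, where Tnnc2 falls. Above 80% it was 62.7% of 75 genes. The extent is counted over all annotated exon bases of a gene, 800 in Tnnc2, of which 592 lie on Ube2c exons. Counted over the 700 bases of the transcript alone, Tnnc2 would fall above 80%. The share with no read also counts genes not expressed in muscle, and Tnnc2 itself held a few reads, so it does not describe a case like Tnnc2. A mean of at least 100 FPKM was reached by 383 of the 17341 genes with no overlap and 108 of the 4218 with up to 50%. It was reached by 1 of the 122 genes with 50% to 80% and 0 of the 75 above 80%. The part of this overlap in the Tnnc2 value was not tested. With neither the strand setting nor the treatment of shared bases known, the near-zero listing is not read as the level of fast TnC, and neither the slow share of TnC nor the ratio of TnC to the other subunits is given.

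**Figure D3:**
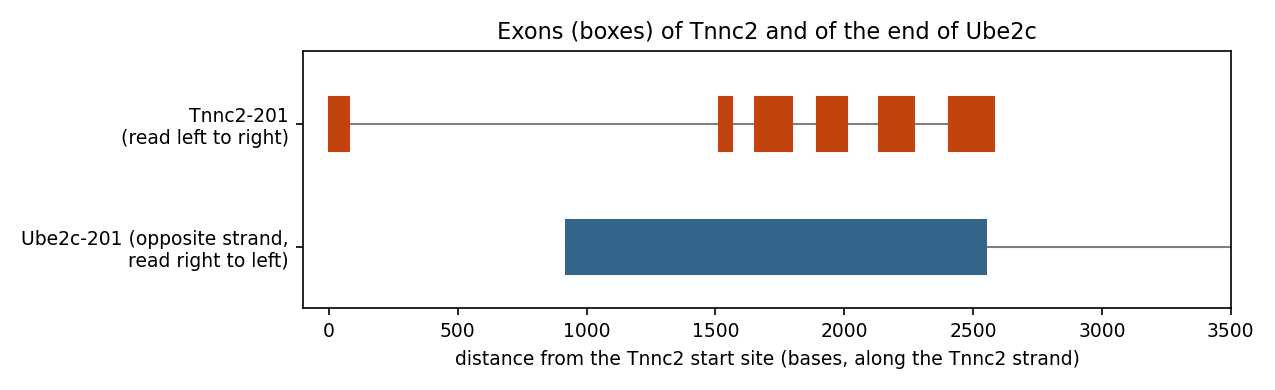
Exons (boxes) of the Tnnc2 transcript and of the end of Ube2c by distance in bases from the Tnnc2 start site along its strand. Ube2c lies on the opposite strand, and 592 of the 700 transcript bases of Tnnc2 lie within its last exon.

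TnI is the inhibitory subunit. Fast TnI is Tnni2 (ENSMUSG00000031097, chr7:142441808-142444410, plus strand). It stood at 9787, 10959, 14876, 9519 and 15626 FPKM in ammonium acetate libraries 4 to 8. PBS libraries 4, 5, 7 and 8 stood at 10437, 8999, 9998 and 8408 FPKM. All 5 ammonium acetate libraries lay above the PBS mean, but libraries 4 and 7 lay inside the PBS range, and libraries 6 and 8 alone were far above it. The log2 fold change was 0.33 (SE 0.21, 95% interval -0.13 to 0.80), with an unadjusted p of 0.141 and an adjusted p of 0.532 by limma. Without libraries 6 and 8 it was 0.10, and 0.19 after each library's trend on gene length was removed.

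Slow TnI is Tnni1 (ENSMUSG00000026418, chr1:135779434-135810989, plus strand). It stood at 16.9, 63.9, 78.4, 59.1 and 36.6 FPKM in ammonium acetate libraries 4 to 8. In the PBS libraries it stood at 41.3, 53.6, 21.1 and 62.1 FPKM. Ammonium acetate library 4 and PBS library 7 were again the lowest of their groups, and the groups overlapped. The log2 fold change was 0.12 (SE 0.42, 95% interval -0.79 to 1.04, adjusted p = 0.903 by limma). It was -0.19 without PBS library 7 and 0.47 without ammonium acetate library 4. Tnni1 made up 0.425% ± 0.207 of Tnni1 plus Tnni2 FPKM in ammonium acetate muscle and 0.483% ± 0.228 in PBS muscle, a difference within the spread of either group.

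Cardiac TnI is Tnni3 (ENSMUSG00000035458, chr7:4518305-4524229, minus strand), which adult limb muscle is not known to use. It held 0, 0, 13, 0 and 0 reads in ammonium acetate libraries 4 to 8, and 1, 1, 3 and 5 reads in the PBS libraries. The 13 reads of ammonium acetate library 6 gave 0.555 FPKM. The cardiac light chain Myl7 and the atrial peptide gene Nppa were at 0 in that library, and the heart myosin Myh6 was at 0.0513 FPKM. A count of 0 allowed up to 0.0895 to 0.132 FPKM in the 4 libraries without a read.

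TnT joins the complex to tropomyosin. Fast TnT is Tnnt3 (ENSMUSG00000061723, chr7:142498836-142516009, plus strand), which lies downstream of Tnni2 on the same chromosome. It stood at 18184, 19690, 22138, 16052 and 21509 FPKM in ammonium acetate libraries 4 to 8. In the PBS libraries it stood at 17286, 15851, 16998 and 15298 FPKM. Of the ammonium acetate libraries, 4 of 5 lay above all PBS libraries and library 7 lay inside their range. The log2 fold change was 0.25 (SE 0.19, 95% interval -0.18 to 0.67), with an unadjusted p of 0.230 and an adjusted p of 0.578 by limma. Without libraries 6 and 8 it was 0.13, and 0.12 with the gene length trend removed.

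**Figure D4:**
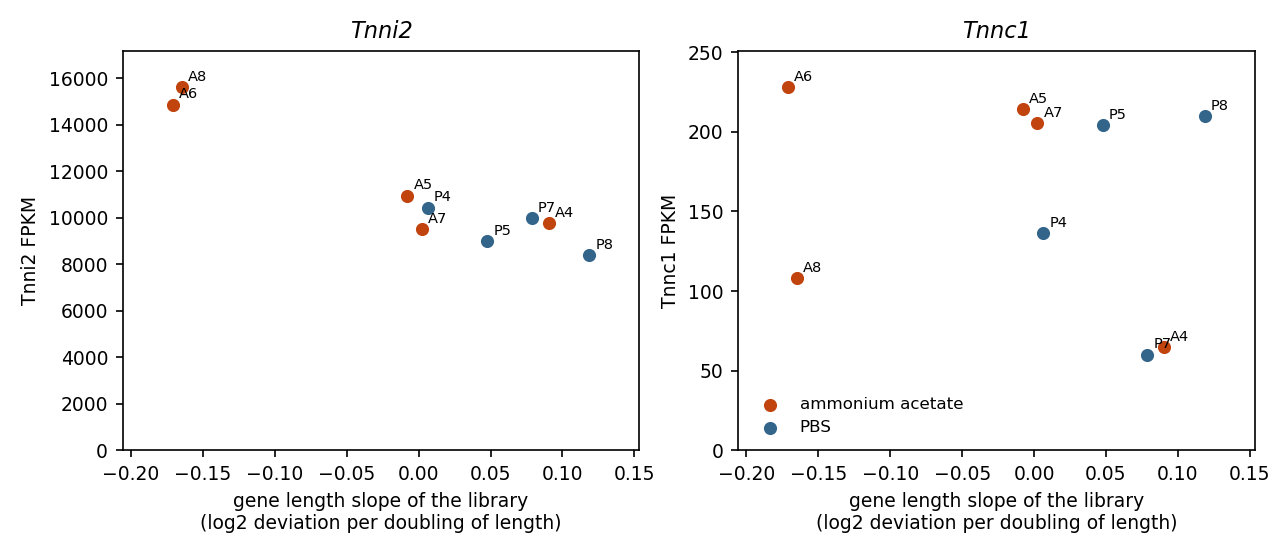
FPKM of Tnni2 (left) and Tnnc1 (right) in each library against the library's slope of log2 deviation on log2 gene length. Labels A and P with a number mark ammonium acetate and PBS libraries. Ammonium acetate libraries 6 and 8 lie at the low end of the slope and at the highest Tnni2 values, while their Tnnc1 values lie far apart.

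Slow TnT is Tnnt1 (ENSMUSG00000064179, chr7:4504570-4516382, minus strand). It stood at 76.0, 235, 236, 239 and 133 FPKM in ammonium acetate libraries 4 to 8. In the PBS libraries it stood at 172, 240, 75.9 and 270 FPKM. The low libraries were those of the other slow genes. The log2 fold change was -0.02 (SE 0.41, 95% interval -0.91 to 0.87, adjusted p = 0.984 by limma), and it ranged from -0.41 without PBS library 7 to 0.26 without ammonium acetate library 4. Tnnt1 made up 0.946% ± 0.427 of Tnnt1 plus Tnnt3 FPKM in ammonium acetate muscle and 1.16% ± 0.572 in PBS muscle, again within the spread of either group. In no library did the slow share pass 0.733% for TnI or 1.73% for TnT.

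Cardiac TnT is Tnnt2 (ENSMUSG00000026414, chr1:135836354-135852260, plus strand), which developing skeletal muscle also uses. It averaged 0.584 ± 0.204 FPKM in ammonium acetate muscle and 0.556 ± 0.213 in PBS muscle, from 32 to 104 reads a library. The log2 fold change was 0.04 (SE 0.19, 95% interval -0.37 to 0.44, adjusted p = 0.935 by limma). Its highest libraries were number 8 of both groups, at 0.886 FPKM in ammonium acetate and 0.852 FPKM in PBS. Its share of all TnT FPKM was at most 0.00547% in any library.

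The fast subunits kept a near-constant ratio outside the libraries that stand apart. Tnnt3 over Tnni2 was 1.64 ± 0.204 in ammonium acetate muscle and 1.73 ± 0.0713 in PBS muscle. The ratio was lowest in ammonium acetate libraries 8 and 6, at 1.38 and 1.49, and lay between 1.66 and 1.86 elsewhere. Tnni2 is the shorter of the 2 genes. The part of gene length in this ratio was not tested.

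Among the 6 troponin genes past the filter the 3 slow genes were the most variable, and they varied together. The SD of their log2 values within groups was 0.81 for Tnnc1, 0.79 for Tnni1 and 0.77 for Tnnt1, larger than in 99.0%, 99.0% and 98.9% of the tested genes. Tnni2 and Tnnt3 had 0.27 and 0.15. The highest library held 3.80 times the Tnnc1 level of the lowest, 4.64 times for Tnni1 and 3.56 times for Tnnt1, each far beyond counting error, since the lowest library still held 1338 reads on these genes. By contrast, Tnnt1 over Tnnc1 stayed between 1.04 and 1.28, at 1.14 ± 0.0725 in ammonium acetate muscle and 1.25 ± 0.0480 in PBS muscle. The ratios to Tnni1 were looser, from 3.02 to 4.49 for Tnnt1 and from 2.84 to 3.84 for Tnnc1. Fewer slow fibres in a piece of muscle and less slow troponin RNA per fibre cannot be told apart in bulk RNA.

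Across the 9 libraries, Tnnc1 and Tnni1 had a Pearson r of 0.98 (exact permutation, adjusted p = 0.000583 over 9 gene pairs) and a Spearman rho of 0.98 (adjusted p = 0.000446). For Tnnc1 and Tnnt1, r was 0.99 (exact permutation, adjusted p = 0.00113), while rho was 0.73 with an adjusted p of 0.0829, since 5 libraries lay close together at the top. For Tnni1 and Tnnt1, r was 0.97 (exact permutation, adjusted p = 0.00118) and rho was 0.72 (adjusted p = 0.0829). Ammonium acetate library 4 and PBS library 7 were the lowest for each of these genes. Without these libraries, r was 0.94 for Tnnc1 with Tnni1, 0.97 for Tnnc1 with Tnnt1 and 0.86 for Tnni1 with Tnnt1. Ammonium acetate library 8 and PBS library 4 came next and stayed in, with Tnnc1 at 108 and 136 FPKM and Tnnt1 at 133 and 172 FPKM. Whether the relation holds among the 5 libraries at the top alone was not tested.

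The fast pair varied together as well, over a narrower range. For Tnni2 and Tnnt3, r was 0.94 (exact permutation, adjusted p = 0.000583) and rho was 0.93 (adjusted p = 0.00337). Without ammonium acetate libraries 6 and 8, r was 0.88, and with the gene length trend removed it was 0.78. Slow and fast forms of one subunit showed no such relation: r was 0.13 for Tnni1 with Tnni2 and -0.13 for Tnnt1 with Tnnt3 (exact permutation, adjusted p = 0.78 for each). With 9 libraries these 2 values leave a moderate relation undetected. The 3 pairs that include Tnnc2 rest on 0 to 6 reads and are not read.

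**Figure D5:**
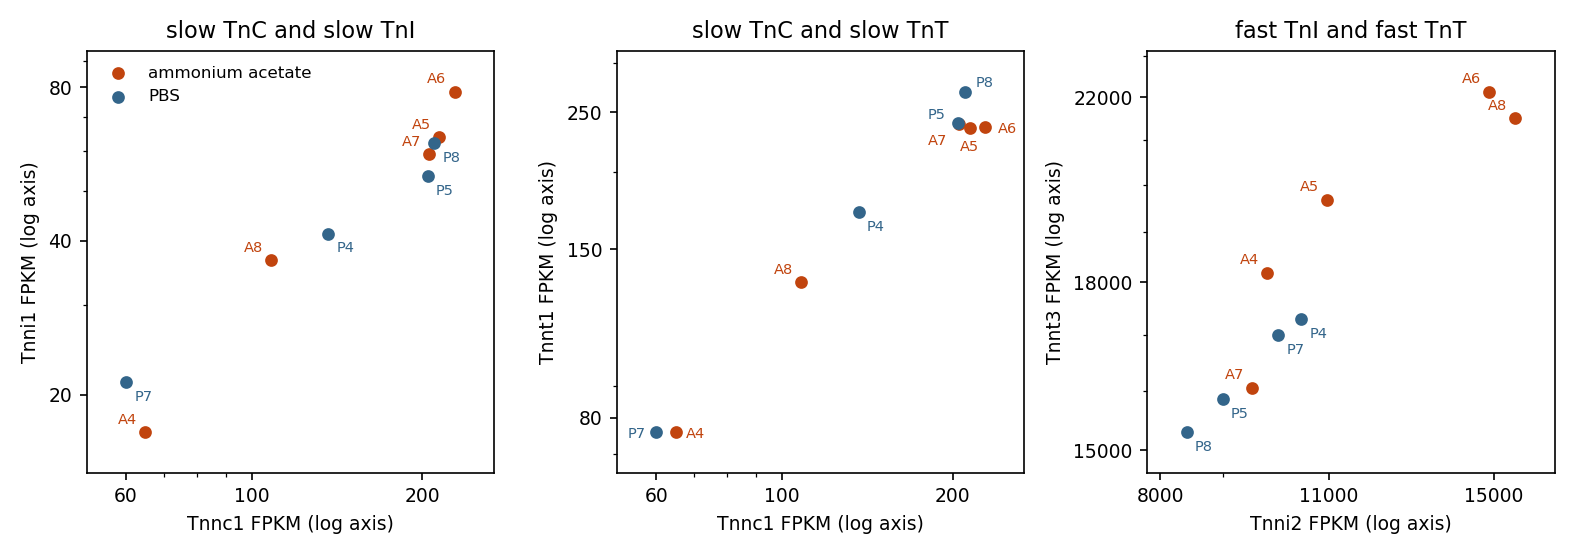
FPKM of pairs of troponin genes on log axes, 1 point per library, with A for ammonium acetate and P for PBS. The slow pairs run along a line from A4 and P7 at the low end to A6 at the high end of Tnnc1, with both groups mixed along it. The fast pair has A6 and A8 at the top.

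The regions before the start sites are shown because the slow genes varied together across libraries. The windows are the 250 bases upstream of a RefSeq start site (build GRCm38.p6), read along the gene. Capitals mark matches on either strand to the E-box CANNTG, bound by myogenic factors, and to the MCAT element CATTCC, bound by TEAD factors. The window of Tnnc1 is chr14:31208062-31208311 on the plus strand, next to the listed gene start. That of Tnni1 is chr1:135799171-135799420 on the plus strand, and that of Tnnt1 is chr7:4515976-4516225 on the minus strand, and both of these lie within the listed span of their gene. RefSeq gives Tnni1 another start site, with a window at chr1:135799261-135799510 that overlaps the one shown.
Tnnc1: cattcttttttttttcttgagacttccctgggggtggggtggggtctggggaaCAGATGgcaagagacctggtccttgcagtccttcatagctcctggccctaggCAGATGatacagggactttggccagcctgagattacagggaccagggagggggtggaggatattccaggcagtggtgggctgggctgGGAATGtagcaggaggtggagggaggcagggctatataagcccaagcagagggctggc
Tnni1: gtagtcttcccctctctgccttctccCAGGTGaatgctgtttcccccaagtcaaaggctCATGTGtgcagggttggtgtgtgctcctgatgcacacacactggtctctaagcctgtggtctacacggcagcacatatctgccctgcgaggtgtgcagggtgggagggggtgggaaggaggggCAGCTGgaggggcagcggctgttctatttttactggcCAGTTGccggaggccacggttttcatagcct
Tnnt1: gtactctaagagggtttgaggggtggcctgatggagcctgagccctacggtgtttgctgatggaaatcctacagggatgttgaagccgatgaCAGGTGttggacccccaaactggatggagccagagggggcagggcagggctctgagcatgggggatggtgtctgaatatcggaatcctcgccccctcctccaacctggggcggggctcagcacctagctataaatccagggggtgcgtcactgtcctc

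These windows held 2 E-box matches in Tnnc1, 4 in Tnni1 (2 in its other window) and 1 in Tnnt1, and 66.2% of 32851 RefSeq promoter windows of this length hold at least 1. The MCAT element was found only in the Tnnc1 window among the 3, at position -58 from the start site, and in 12.6% of all windows. The NFAT core GGAAA was found in Tnnt1 and in the Tnni1 window shown, though not in its other window, and in 55.6% of all windows, and the box CACCC in all 3 and in 52% of all windows. The MEF2 site and the CArG box, found in 0.508% and 1.47% of all windows, had no match in the 3. No E-box match overlapped an MCAT match. These are letter matches only.

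The 3 genes most like the slow troponins were of the slow fibre list. Likeness was the Pearson r over the 9 libraries with the mean of Tnnc1, Tnni1 and Tnnt1, among 10594 named tested genes, given as a description. The closest were Tpm3, the slow tropomyosin (r = 0.99), the slow myosin light chains Myl3 (0.98) and Myl2 (0.95), the LIM protein Fhl2 (0.92) and Grtp1 (0.89). Of the genes compared, 4 had an r of at least 0.9. Tpm3, which wraps the same filament that troponin sits on, ran at 55.2, 168, 163, 155 and 88.0 FPKM in ammonium acetate libraries 4 to 8. PBS libraries 4, 5, 7 and 8 held 103, 147, 62.1 and 179 FPKM of Tpm3. Its low libraries were the low libraries of the slow troponins, which follows from its choice by r over the same libraries. Of the 11 genes of that list only Tpm3, Myl3 and Myl2 passed 0.9, while Myoz2, Csrp3 and Atp2a2 had 0.86, 0.87 and 0.85. Ankrd2 had 0.77, Casq2 0.74, Mb 0.67, the slow myosin heavy chain Myh7 0.62 and the light chain Myl6b 0.48.

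The fast profile was shared by many more genes, and they were short. Of the 10594 genes, 318 had an r of at least 0.9 with the mean of Tnni2 and Tnnt3, with a median length of 1593 bases against 3105 bases for all genes compared. The 5 closest, Aamdc, Eif5a, Mcts2, Atp6v1g1 and Bod1, had an r from 0.98 to 0.99 and lengths from 917 to 1437 bases. Eif5a is a translation factor and Atp6v1g1 a subunit of the vacuolar proton pump. The part of gene length in this likeness was not tested. For Tnnt2 the closest were Msl3, Ogfr, Zfp59, Fbxo33 and Ino80e, with an r from 0.92 to 0.95, and 11 genes reached 0.9.

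Other contractile genes were set beside the troponins by fixed lists, each read from the same limma test, in which none passed the threshold. Over all 11337 genes 4979 were higher in ammonium acetate muscle and 6358 lower, and the median of all log2 fold changes was -0.03. Of 10 thin filament genes, 6 were higher and 4 lower, with a median of 0.03. Neb, the giant protein along the thin filament, averaged 126 ± 53.8 FPKM in ammonium acetate muscle and 190 ± 26.8 in PBS muscle (log2 fold change -0.71, unadjusted p = 0.0337, adjusted p = 0.527 by limma). Neb is a very long gene, and its lowest values, 60.8 and 76.9 FPKM, were in ammonium acetate libraries 8 and 6. Lmod2, which elongates thin filaments, averaged 65.5 ± 14.3 FPKM in ammonium acetate muscle and 100 ± 40.8 in PBS muscle.

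Of 11 slow fibre genes, 6 were higher and 5 lower, with a median of 0.02. The light chain Myl6b averaged 8.94 ± 1.95 FPKM in ammonium acetate muscle and 6.74 ± 0.921 in PBS muscle (unadjusted p = 0.0389, adjusted p = 0.527 by limma). Myh7 ran from 10.2 to 80.2 FPKM in ammonium acetate muscle and from 28.1 to 111 FPKM in PBS muscle (log2 fold change -0.71, adjusted p = 0.568 by limma), and ammonium acetate library 8 was its lowest.

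Of 11 fast fibre genes, 6 were higher and 5 lower, with a median of 0.09. The fast myosin heavy chain Myh1 averaged 324 ± 172 FPKM in ammonium acetate muscle and 605 ± 169 in PBS muscle (log2 fold change -1.02, unadjusted p = 0.0121, adjusted p = 0.527 by limma). Myh2, the heavy chain of oxidative fast fibres, averaged 250 ± 139 FPKM in ammonium acetate muscle and 434 ± 152 in PBS muscle. These long genes had signs opposite to the short genes Tnni2 and Tnnt3, and their values in ammonium acetate libraries 6 and 8 were the lowest of all libraries.

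Of 9 cardiac genes only Myl4 and Actc1 passed the filter, and both were higher. Myl4, a light chain of atrial and developing muscle, averaged 1.95 ± 0.640 FPKM in ammonium acetate muscle and 1.38 ± 0.308 in PBS muscle (log2 fold change 0.36, adjusted p = 0.527 by limma). Actc1, cardiac actin, averaged 167 ± 71.8 FPKM in ammonium acetate muscle and 153 ± 17.2 in PBS muscle. Its log2 fold change was only 0.03 (adjusted p = 0.967 by limma), and its highest library was ammonium acetate library 6, at 280 FPKM. Of 11 genes of developing or regenerating fibres 6 were tested, with 5 higher, 1 lower and a median of 0.08. The lower gene was Ncam1, at 0.744 ± 0.278 FPKM in ammonium acetate muscle and 0.921 ± 0.228 in PBS muscle. Of 12 fibre type regulators 11 were tested, with 1 higher, 10 lower and a median of -0.14. Tead1, a factor of the MCAT element, averaged 22.4 ± 7.05 FPKM in ammonium acetate muscle and 31.6 ± 5.98 in PBS muscle (log2 fold change -0.53, unadjusted p = 0.0306, adjusted p = 0.527 by limma). Six4, a homeobox factor, averaged 3.39 ± 0.765 FPKM in ammonium acetate muscle and 4.19 ± 0.409 in PBS muscle. Both genes were lowest in ammonium acetate libraries 8 and 6, where Tead1 stood at 13.9 and 17.1 FPKM.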

How the data were processed

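The authors deposited a table of FPKM values (per gene length and library size) for 35275 genes, with a gene length that equals that of 1 transcript where this was checked. Per the submitters' processing notes, DESeq2, HTSeq, STAR, TopHat and the build mm10 were used, and neither versions nor roles are stated. FPKM times length in kb summed to 1000000 per library, and 100% of the values came out as whole reads within 0.05 read, so the depth of 24930547 to 41780251 reads was recovered. Genes with a mean of at least 0.5 FPKM were tested with limma 3.58.1 (R 4.3.3) on log2(FPKM + 0.5), moderated with a mean-variance trend. The test was two-sided, p-values were adjusted by Benjamini-Hochberg over all genes, and 0.05 was the threshold. The pseudocount shrinks fold changes of low genes. Correlations used exact permutation over 9 libraries (numpy 2.4.6). Slow shares, ratios and lists got no test. Named genes were the 8 troponin genes, the 2 genes of smallest p in each list and the 5 genes most like each profile, where Tnnc2 could not enter the fast profile. The 3 listed symbols not in the table were matched to older ones by Ensembl identifier. The members and lists were chosen with earlier results of these data known. The limma procedure was tested on simulated data. Alternatives covered the pseudocount, filter, scaling, variance model, length trend, replicate block and libraries left out. Coordinates are those of the deposited table, and 97.8% of its identifiers were in GENCODE M21. Paralogs of the same subunit share exact stretches of at most 22 bases. The values of 1 marker list are not reported here.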

Additional observations from a re-analysis of the deposited data

Results flagged for a closer look

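Over 41 quantities, 82 groups of libraries were screened for a library far from the others of its group, and chance flags about 1 group in 20. There were 2 such cases, fewer than that rate gives over 82 groups. Tnni3 stood at 0.555 FPKM in ammonium acetate library 6 and at 0 in the other 4 ammonium acetate libraries. With those 4 tied at 0, any value above 0 would have been flagged. The slow light chain Myl2 stood at 105 FPKM in PBS library 7, and the other 3 PBS libraries held 259 to 278 FPKM. PBS library 7 was also the lowest PBS library for Tnnc1, Tnni1 and Tnnt1, and Myl2 had entered the screen by its likeness to these genes.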

How the results depend on the processing

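All 23 alternatives left 0 genes past the threshold by limma, including voom on the recovered reads (924 genes at an unadjusted p under 0.05) and the replicate block (260 genes). The labels do not say whether equal numbers mark pairs of libraries. Deviations of same-numbered libraries from their group means correlated at -0.34 to -0.07, and library 6 of ammonium acetate has no partner. The log2 fold changes of Tnni2 and Tnnt3 kept their direction in all 23, and those of the other 4 tested genes, never past the threshold, did not. Under the replicate block Tnnc1 was at -0.046 and Tnni1 at -0.076. That block fits the unpaired library 6 exactly, so these values equal those without ammonium acetate library 6. With the gene length trend removed Tnnc1 was at -0.042, and without ammonium acetate libraries 6 and 8 Tnni1 was at -0.044. Tnnt1 was at 0.025 under median-of-ratios and 0.047 under upper-quartile scaling, and Tnnt2 at -0.0089 with library weights. With 1 library left out the range was -0.28 to 0.40 for Tnnc1 (below 0 without ammonium acetate library 5, 6 or 7 or PBS library 7), -0.19 to 0.47 for Tnni1 (below 0 without ammonium acetate library 5 or 6 or PBS library 7), -0.41 to 0.26 for Tnnt1 (above 0 without ammonium acetate library 4 or 8 or PBS library 5 or 8) and -0.056 to 0.16 for Tnnt2 (below 0 without ammonium acetate library 8 or PBS library 4 or 7). The r of Tnni1 with Tnni2 was -0.15 without its 2 farthest libraries, -0.088 with the length trend removed, -0.20 without ammonium acetate libraries 6 and 8, and -0.16 (without ammonium acetate library 6) to 0.28 with 1 left out. That of Tnnt1 with Tnnt3 was -0.49, -0.44 and -0.34 in these 3 settings and -0.35 to 0.038 (without PBS library 8) with 1 left out. Beyond the replicate block, the cause of these turns was not tested. Tnnt2 could not be fitted at a filter of 2 FPKM. Tnni3, Tnnc2 and Tnnt2 rest on at most 13, 6 and 104 reads a library.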

Other observations

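Markers of other cell types also differed between libraries, and their part in the troponin values was not tested. Tendon markers ranged from 50.9 to 153 FPKM in ammonium acetate libraries and from 58.6 to 288 FPKM in PBS libraries. Muscle spindle markers (Myh6, Myh7b and Egr3) summed to 0.365 to 1.04 FPKM in ammonium acetate libraries and 1.13 to 2.48 FPKM in PBS libraries.

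Endothelial markers summed to 32.5 to 72.1 FPKM in ammonium acetate libraries and 69.4 to 80.2 FPKM in PBS libraries. Red cell genes summed to 97.0 to 147 FPKM in ammonium acetate libraries and 150 to 199 FPKM in PBS libraries. Smooth muscle markers held 43.7 to 77.9 FPKM in ammonium acetate libraries and 50.9 to 68.5 FPKM in PBS libraries. Adipocyte markers held 6.18 to 19.5 FPKM in ammonium acetate libraries and 7.76 to 33.5 FPKM in PBS libraries. All 4 macrophage markers were lower on average in ammonium acetate muscle, with a median log2 fold change of -0.41. Their sum was 3.90 to 7.27 FPKM in ammonium acetate libraries. PBS library 4 lay below this range, at 3.58 FPKM, and PBS libraries 5, 7 and 8 lay above it. Skin keratins reached 47.5 FPKM in 1 ammonium acetate library and were at 0.491 to 0.675 FPKM in the PBS libraries.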
